A study of Mus musculus with 7 samples.

Results

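A set of 10 genes for neural splicing factors and RNA-binding regulators was taken from the tables by symbol: Ptbp1, Ptbp2, Nova1, Nova2, Rbfox1, Rbfox2, Rbfox3, Srrm4, Msi1 and Msi2. All 10 were among the 16143 genes of the deposited tables, with 61 of the 55404 transcripts. Retinas of ICR mice, an outbred stock, were taken at embryonic day 17.5 and electroporated with either of 2 plasmids. One was a control plasmid, and the other expressed shKmt2f, a hairpin that targets Kmt2f, another name of the histone H3 lysine 4 methyltransferase gene Setd1a. Both groups also received a plasmid for EGFP, were kept as explants for 2 days, and were then dissociated and sorted for EGFP-positive cells. The control group had 3 libraries and the shKmt2f group 4. Sorting by EGFP takes the cells that received plasmid, whatever their type. The labels do not say how many retinas went into a library or whether the libraries are from different animals, so the p-values speak only of the spread among these 7 libraries, part or all of which may be technical.

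Polypyrimidine tract-binding proteins bind pyrimidine-rich RNA near exons and mostly prevent their use. Ptbp1 is the form of dividing progenitors and non-neuronal cells, and Ptbp2, its close relative, takes over when neurons are born. Ptbp1 protein is known to favour skipping of a short exon in its own RNA and of the matching exon in Ptbp2 RNA, which puts a stop codon in the wrong place and sends the RNA to nonsense-mediated decay. Nova, Rbfox and Srrm4 proteins control exons used in neurons, Srrm4 most of all the very short microexons. Musashi proteins (Msi1, Msi2) bind RNA in neural stem cells, where they repress translation, and are also known to act on exons in photoreceptors.

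The exons through which Ptbp1 and Ptbp2 are switched between a coding and a decay form are shown because the transcripts with and without them are compared further on. The sequences are 5′ to 3′ as spliced in the GRCm38 annotation (GENCODE M21), with the exon in capitals and 20 bases of each neighbouring exon in lower case. The Ptbp1 exon lies at chr10:79862014-79862047 on the plus strand and the Ptbp2 exon at chr3:119724612-119724645 on the minus strand, both within coding sequence.
Ptbp1 34-base exon: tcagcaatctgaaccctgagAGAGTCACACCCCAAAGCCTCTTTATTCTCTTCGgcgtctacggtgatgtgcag
Ptbp2 34-base exon: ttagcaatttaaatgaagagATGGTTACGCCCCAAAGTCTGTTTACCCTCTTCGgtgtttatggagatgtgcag
The exons match at 26 of 34 bases (76.5%). Counted from 1 at the 5′ end of the exon, with the base of Ptbp1 first, they differ by G2T, A3G, C6T, A9G, C18T, C21G, T26C and T27C. Pyrimidines make up 64.7% of each. Because 34 is not a multiple of 3, leaving the exon out shifts the reading frame, and in both genes the same stop codon then ends 27 bases into the next exon. The joined sequences of the exon-less transcripts are given next, with the stop codon in capitals.
Ptbp1-207 junction: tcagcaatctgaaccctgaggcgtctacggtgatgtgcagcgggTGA
Ptbp2-206 junction: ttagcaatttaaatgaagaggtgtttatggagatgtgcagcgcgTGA
In Ptbp1-207 another 2 exons and in Ptbp2-206 another 3 follow the exon with this stop, and the annotation marks both as targets of nonsense-mediated decay.

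Levels are in TPM, a share of a library's transcripts corrected for transcript length, so that genes can be compared with each other. TPM was summed over the listed transcripts of a gene, and totals per library lay between 991445 and 992309. TPM keeps no read depth, and the depth is unknown. Between 11840 and 12318 genes per library had at least 1 TPM. The longest transcript of the targeted gene, Setd1a-201, had 0.767, 0.959 and 0.764 TPM in the control libraries and 0.407, 0.328, 0.374 and 0.432 TPM in the shKmt2f libraries, with no overlap between the groups (exact permutation p = 0.0286, two-sided, the smallest that the 35 splits of 7 libraries allow). The sum over all Setd1a transcripts was 8.95 ± 2.36 TPM (SD, n = 3) against 6.94 ± 1.71 TPM (SD, n = 4), and the groups overlapped.

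Summed over all listed transcripts, fragments included, Ptbp1 stood highest, at 282 TPM over all 7 libraries. Ptbp2 followed at 179 TPM, and no Ptbp2 sum reached the lowest Ptbp1 sum. Rbfox2 followed at 31.1 TPM, Msi1 at 16.3, Msi2 at 12.1 and Srrm4 at 9.53 TPM. The ranges of Msi1 and Msi2 overlapped, as did those of Msi2 and Srrm4, so these neighbours were not separated by their spread. Nova1 (2.84 TPM), Rbfox1 (2.52), Nova2 (0.696) and Rbfox3 (0.262 TPM) were low, and each overlapped the next in this order. The plot of each gene by library shows these levels on separate scales. This order is that of the sums. Between the full-length coding transcripts, Ptbp2-201 had a mean of 54.9 TPM and Ptbp1-202 one of 49.3 TPM, with overlapping ranges. Among the main coding transcripts of the Musashi genes, Msi2-203 was at 4.49 TPM and Msi1-208 at 3.53 TPM, also with overlap.

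**Figure D1:**
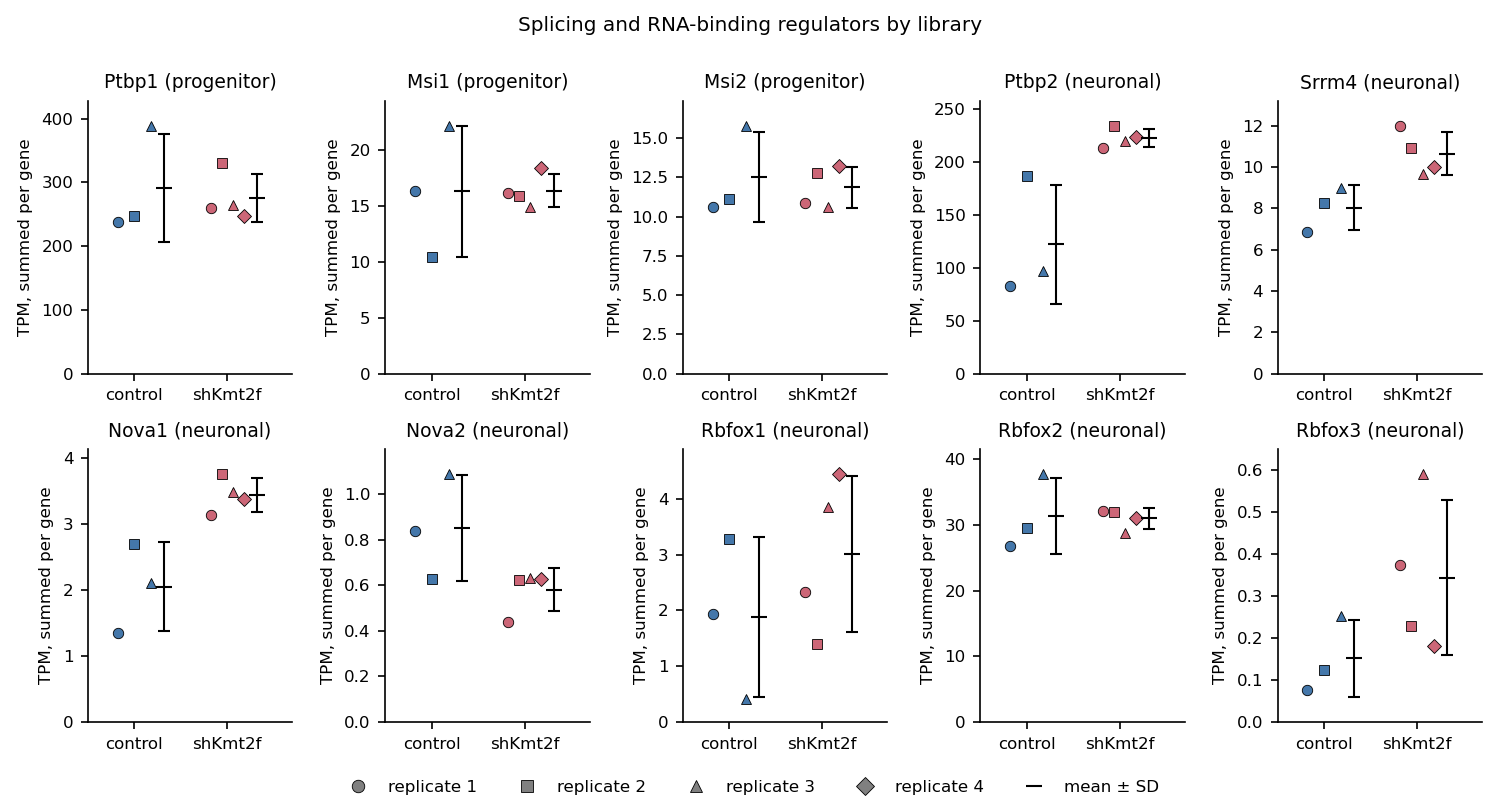
TPM summed over the transcripts of each of the 10 genes (vertical axes, from 0), by group (horizontal axis), with 1 point per library and the mean ± SD beside the points. In the Ptbp2, Nova1 and Srrm4 panels all 4 shKmt2f libraries lie above all 3 control libraries, and in the other panels the groups overlap.

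Genes were tested with limma, a linear model fitted across all genes, on log2(TPM + 1), where 3 or more libraries reached 1 TPM, with a threshold of 0.05 on the Benjamini-Hochberg adjusted p. Fold changes are shKmt2f minus control on the log2(TPM + 1) scale, which understates the change of low genes. Of the 8 regulators tested, 1 rose (Ptbp2) and none fell. Nova2 and Rbfox3 were below the filter. Over all 12456 genes tested, 10.4% were called higher and 3.69% lower. The median fold change of the 8 was 0.22 beside 0.09 over all genes, with 5 positive and 3 negative. Groups that did not overlap were found for 3 of the 8, all higher in shKmt2f (Ptbp2, Nova1 and Srrm4), beside 19.2% of all genes higher and 9.67% lower. With so few members these shares do not set them apart from the other genes.

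Ptbp2 (ENSMUSG00000028134, chromosome 3 from 119718742 to 119784466, minus strand of GRCm38) had 83.0, 186 and 96.9 TPM in the control libraries and 213, 234, 219 and 223 TPM in the shKmt2f libraries. Control replicate 2 lay close to the shKmt2f libraries and the other control libraries well below them, and the groups did not overlap. The mean went from 122 ± 56.0 TPM (SD, n = 3) to 222 ± 8.67 TPM (SD, n = 4), a ratio of 1.82. The log2 fold change was 0.95 (SE 0.24), and this passed in limma with an adjusted p of 0.0377. The call was lost without control replicate 1 (0.72, limma adjusted p = 0.120), without control replicate 3 (0.83, adjusted p = 0.112) and without any 1 shKmt2f library (limma adjusted p between 0.0739 and 0.0945), and without the filter on low genes (limma adjusted p = 0.0537). Without control replicate 2 the fold change was 1.30, with a limma adjusted p of 0.000466. Over all genes 3004 then passed, beside 1755 with every library kept.

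Ptbp1 (ENSMUSG00000006498, chromosome 10 from 79854427 to 79864771, plus strand) had 238, 247 and 389 TPM in control and 259, 331, 265 and 247 TPM with shKmt2f. Control replicate 3 was the highest of all and the groups overlapped. The mean was 291 ± 84.5 TPM (SD, n = 3) against 276 ± 37.7 TPM (SD, n = 4), with no call (limma, log2 fold change -0.05, SE 0.18, adjusted p = 0.876). More than 50% of the sum came from Ptbp1-211, a coding fragment of 319 bases, which held 55.0% ± 1.83 (SD, n = 3) of it in control and 56.5% ± 1.04 (SD, n = 4) in shKmt2f libraries. Ptbp1-202, the main full-length coding transcript at 2598 bases, had 41.6, 48.0 and 68.0 TPM in control and 44.9, 58.6, 41.9 and 42.5 TPM with shKmt2f, again with overlap (limma, log2 fold change -0.14, SE 0.19, adjusted p = 0.706).

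No transcript of the 10 genes passed in limma by adjusted p: 0 of 39 tested, beside 2.24% of all 37024 transcripts tested. An unadjusted p under 0.05 was found for 11 of the 39, beside 23.4% of all transcripts tested. Of the 39, 7 were higher in shKmt2f with no overlap between groups (14.6% over all transcripts), and 2 were lower (6.97%). Of the 61 transcripts, 3 had a q-value under 0.05 in the authors' deposited table, beside 5.52% of all transcripts. These were Ptbp2-202 (effect 0.72 on the natural log scale, q = 0.0398), Ptbp2-201 (0.46, q = 0.0449) and Msi1-209 (-0.54, q = 0.0259), all from the authors' deposited table. Of the 7 transcripts that stood higher without overlap, 5 belong to Ptbp2.

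Ptbp2-201, the full-length coding transcript of 3364 bases, had 30.3, 56.9 and 32.4 TPM in control and 63.7, 70.5, 66.0 and 64.2 TPM with shKmt2f (limma, log2 fold change 0.77, SE 0.21, adjusted p = 0.0794). Ptbp2-206, the decay form without the 34-base exon, had 24.1, 59.9 and 29.2 TPM in control and 60.3, 75.1, 60.4 and 64.7 TPM with shKmt2f (limma, 0.88, SE 0.28, adjusted p = 0.112). In both, control replicate 2 sat just under the shKmt2f libraries, and the fold change was of like size in the coding and the decay form. Ptbp2-202, a coding fragment of 465 bases, had 17.7, 49.7 and 24.8 TPM against 58.7, 59.0, 65.2 and 66.8 TPM (limma, 1.13, SE 0.29, adjusted p = 0.0778), and Ptbp2-209, a non-coding form of 654 bases, was at 9.06 ± 5.15 TPM (SD, n = 3) against 21 ± 0.892 TPM (SD, n = 4; limma, 1.26, SE 0.31, adjusted p = 0.0693). Without control replicate 2 all 4 passed, with limma adjusted p between 0.00215 and 0.00470. Over all transcripts 4393 then passed, beside 828 with every library kept, so the gain was not particular to Ptbp2.

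**Figure D2:**
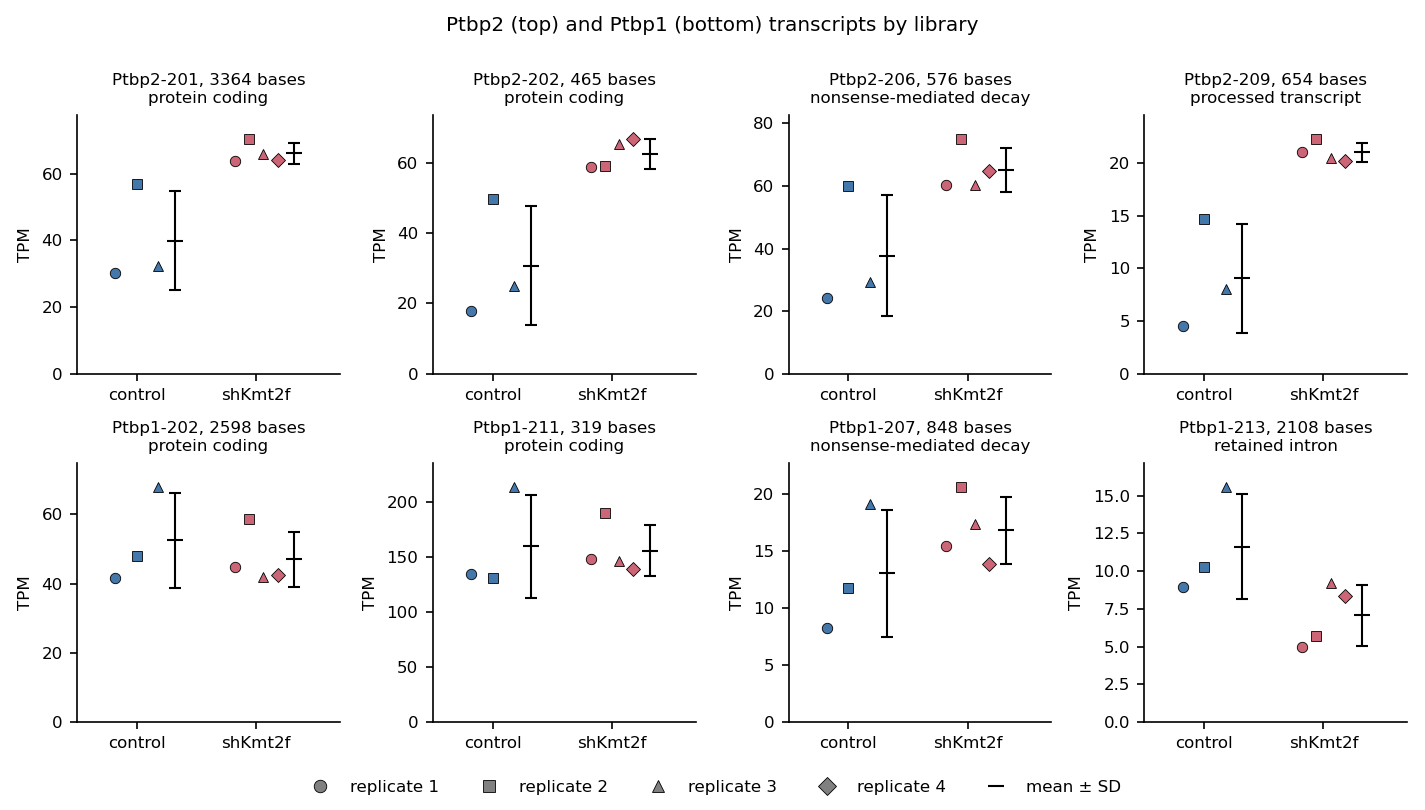
TPM (vertical axes, from 0) of 4 Ptbp2 and 4 Ptbp1 transcripts by group, with 1 point per library and the mean ± SD, and length and annotated type above each panel. The 4 Ptbp2 transcripts are higher in every shKmt2f library than in every control library, and the Ptbp1 transcripts Ptbp1-202, Ptbp1-211 and Ptbp1-207 overlap between the groups. Ptbp1-213 also overlaps.

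Transcript length moved with the groups. The slope of log2 level on log2 length, each library set against the mean of all, was -0.060, 0.000 and -0.029 over transcripts in the control libraries and 0.024, 0.047, 0.002 and 0.016 in the shKmt2f libraries. The groups did not overlap (exact permutation p = 0.0286). Over genes the slopes spread more widely, at -0.131, -0.021 and -0.024 in control and 0.040, 0.107, 0.002 and 0.026 in shKmt2f libraries. These did not overlap either (exact permutation p = 0.0286). When each library was corrected for GC content and transcript length, the Ptbp2 log2 fold change was 0.59 (limma, adjusted p = 0.0466), and that of Nova1, with a main transcript of 7154 bases, was -0.22 (limma, adjusted p = 0.327).

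Within Ptbp2, the share of TPM in Ptbp2-201 was 36.5, 30.6 and 33.5% in control and 29.8, 30.2, 30.2 and 28.8% in shKmt2f libraries. All control values were the higher ones, by a narrow margin at control replicate 2. The means were 33.5% ± 2.94 (SD, n = 3) and 29.7% ± 0.655 (SD, n = 4; exact permutation p = 0.0286, or 0.129 adjusted over the 9 genes compared in this way). The difference in the log2 ratio of Ptbp2-201 to the other transcripts, -0.25, was -0.16 without control replicate 1. The other transcripts were mostly Ptbp2-202, Ptbp2-206 and Ptbp2-209.

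Use of the switch exons was compared as the share of TPM in transcripts that span the exon but leave it out, with 12 alternative exons of the 10 genes compared in all. For the 34-base exon of Ptbp2 this share was 33.4, 35.9 and 33.7% in control and 33.0, 36.7, 31.5 and 33.0% in shKmt2f libraries. The groups overlapped, at 34.3% ± 1.39 (SD, n = 3) and 33.5% ± 2.21 (SD, n = 4; exact permutation p = 0.543, 0.686 adjusted over the 12). The log2 ratio of skipped to included Ptbp2 differed by -0.05, and leaving out 1 library gave -0.12 to 0. The skipped form is the single transcript Ptbp2-206, of 576 bases. The included form is mostly Ptbp2-201, of 3364 bases, and the 465-base fragment Ptbp2-202, so this share sets transcripts of unlike length against each other.

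For the 34-base exon of Ptbp1 the skipped share was 15.0, 18.4 and 20.1% in control and 24.2, 24.4, 27.7 and 22.2% in shKmt2f libraries. All shKmt2f libraries were above all control libraries. The means were 17.9% ± 2.58 (SD, n = 3) and 24.6% ± 2.25 (SD, n = 4), and the log2 ratio of skipped to included differed by 0.59 (exact permutation p = 0.0286, or 0.171 adjusted over the 12). Leaving out 1 library gave differences of 0.45 to 0.70. The skipped form is a single transcript of 848 bases, Ptbp1-207, with 8.21, 11.7 and 19.1 TPM in control and 15.4, 20.6, 17.3 and 13.8 TPM with shKmt2f, a range that overlapped (limma, log2 fold change 0.40, SE 0.26, adjusted p = 0.397). The included form is mostly Ptbp1-202. The difference in share thus rests on the balance of 2 transcripts of unlike length, neither of which passed the test alone. A test that the Ptbp1 and Ptbp2 exons differed in their response was not made.

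The same short transcript also enters the comparison of another Ptbp1 exon, of 78 bases or 26 codons, in the linker between RNA recognition motifs. It is shown, with 20 bases on each side, because its result depends on that transcript.
Ptbp1 78-base exon: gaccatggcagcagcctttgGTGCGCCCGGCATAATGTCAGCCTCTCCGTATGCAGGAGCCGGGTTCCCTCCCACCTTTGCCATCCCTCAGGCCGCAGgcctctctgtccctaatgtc
This exon lies at chr10:79860117-79860194 on the plus strand and 60.3% of it is pyrimidine. It was left out in 75.8% ± 1.86 (SD, n = 3) of the spanning TPM in control and 69.6% ± 0.955 (SD, n = 4) in shKmt2f libraries, with no overlap (exact permutation p = 0.0286, 0.171 adjusted over the 12). Ptbp1-207 includes this exon, and with that transcript left out, a choice made after the values were seen, the shares were 92.3% ± 1.59 and 92.3% ± 2.02 (exact permutation p = 0.943). Another Ptbp1 exon, of 30 bases, was left out in 24.8% ± 1.72 against 23.1% ± 0.610 of the TPM (exact permutation p = 0.0571, 0.229 adjusted). Here the only form with the exon is the 319-base fragment Ptbp1-211, and the only form without it is Ptbp1-202, of 2598 bases. This share too rests on the balance of transcripts of unlike length.

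**Figure D3:**
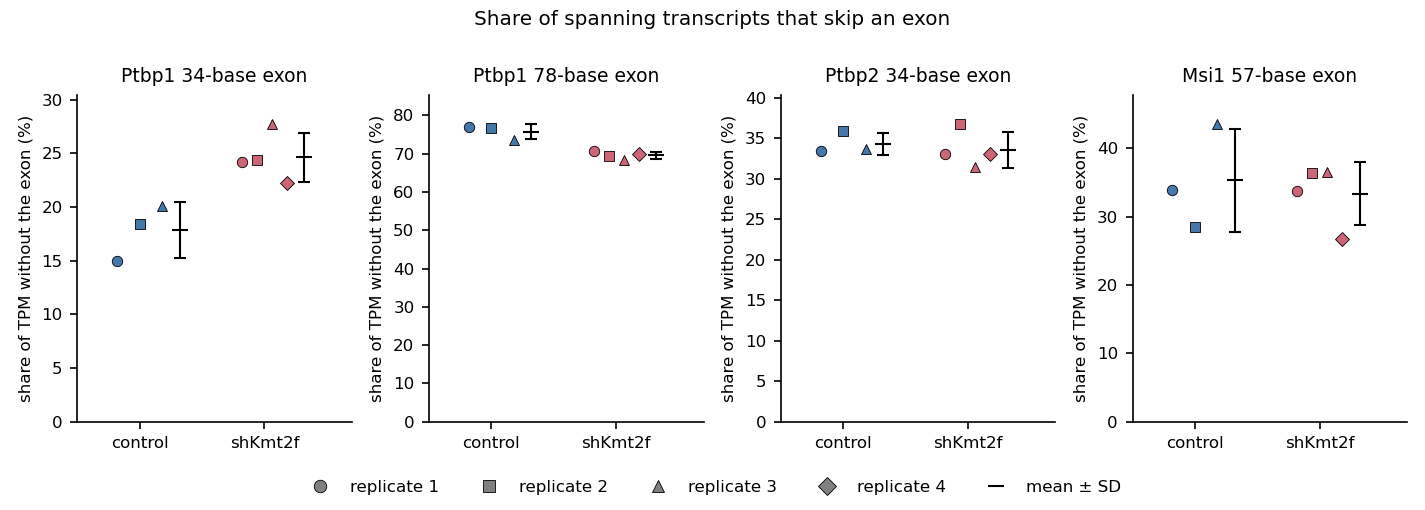
Share of spanning TPM without the exon (vertical axes, percent, from 0) for 2 Ptbp1 exons, the Ptbp2 34-base exon and an Msi1 exon, by group, with 1 point per library and the mean ± SD. The groups are apart for both Ptbp1 exons, which share the transcript Ptbp1-207, and overlap for Ptbp2 and Msi1.

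Among other neuronal splicing factors, Nova1, which was first known as an autoimmune antigen of neurons, had 1.35, 2.69 and 2.11 TPM in control and 3.14, 3.76, 3.48 and 3.37 TPM with shKmt2f (ENSMUSG00000021047, chromosome 12 from 46694517 to 46818929, minus strand). The groups did not overlap, but the change did not pass (limma, log2 fold change 0.56, SE 0.18, adjusted p = 0.0656). It passed without control replicate 2 (0.71, limma adjusted p = 0.0204), and its sign turned with the correction for GC content and length (-0.22, limma adjusted p = 0.327). Most of Nova1 was the coding transcript Nova1-201, whose share was 92.0, 94.1 and 73.3% in control and 69.2, 72.1, 69.6 and 70.3% in shKmt2f libraries (exact permutation p = 0.0286, 0.129 adjusted over the 9 genes). Control replicate 3 was nearer to the shKmt2f libraries than to the other controls. The log2 ratio of Nova1-201 to the rest differed by -1.28, by -0.83 without control replicate 2 and by -1.85 without control replicate 3. The other part was mainly Nova1-203, a coding fragment of 532 bases with 0.108, 0 and 0.517 TPM in control and 0.782, 0.920, 0.945 and 0.932 TPM with shKmt2f, all under the level needed for limma.

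Nova2, the main Nova gene of the cortex, had a single listed transcript with 0.839, 0.626 and 1.09 TPM in control and 0.440, 0.623, 0.632 and 0.627 TPM with shKmt2f (ENSMUSG00000030411, chromosome 7 from 18925888 to 18965319, plus strand). Control replicate 2 lay among the shKmt2f values, and the difference did not reach the threshold (exact permutation p = 0.0857). The ratio of Nova2 to Nova1 was 0.620, 0.232 and 0.514 in control and 0.140, 0.166, 0.181 and 0.186 in shKmt2f libraries, so that every shKmt2f library was below every control library. This ratio is given as values with no test.

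Srrm4 (ENSMUSG00000063919, chromosome 5 from 116439275 to 116591817, minus strand), the activator of neuronal microexons, had 6.86, 8.25 and 8.98 TPM in control and 12, 10.9, 9.66 and 10 TPM with shKmt2f. The groups did not overlap, though control replicate 3 and shKmt2f replicate 3 lay close together. The difference did not pass (limma, log2 fold change 0.37, SE 0.15, adjusted p = 0.124). Nearly all of it was Srrm4-201, a coding transcript of 7472 bases that held 92.2% ± 3.18 (SD, n = 3) and 88.7% ± 5.12 (SD, n = 4) of the gene's TPM.

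Rbfox1 (ENSMUSG00000008658, chromosome 16 from 5885355 to 7411526, plus strand) had 1.94, 3.28 and 0.417 TPM in control and 2.32, 1.39, 3.86 and 4.45 TPM with shKmt2f. The libraries of both groups were widely spread and overlapped (limma, log2 fold change 0.54, SE 0.40, adjusted p = 0.393). Rbfox genes carry a pair of alternative exons near the end of the coding sequence, of 40 and 43 bases, of which the first is the form used in brain and the second the form used in muscle. They are shown for Rbfox1 with 20 bases on each side, since of the 12 log2 ratios compared theirs differed most between the groups, by -2.87.
Rbfox1 40-base exon: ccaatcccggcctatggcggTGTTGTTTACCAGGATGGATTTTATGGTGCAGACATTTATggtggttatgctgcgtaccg
Rbfox1 43-base exon: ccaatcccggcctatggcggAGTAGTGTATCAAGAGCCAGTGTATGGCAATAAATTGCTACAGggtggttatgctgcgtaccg
They lie at chr16:7363865-7363904 and chr16:7369801-7369843 on the plus strand. The 40-base exon matches that of Rbfox2 at 34 of 40 bases (85.0%), and the 43-base exon at 27 of 43 (62.8%). The form with the 43-base exon, Rbfox1-206, had 0.970, 1.41 and 0.347 TPM in control and was listed at 0, 0, 1.48 and 1.46 TPM with shKmt2f. Its share was 50.0, 42.9 and 83.3% against 0, 0, 38.3 and 32.7%, lower in every shKmt2f library, but the test on the log2 ratio missed the threshold (exact permutation p = 0.114, 0.343 adjusted over the 12). At these levels an exact 0 may be a failed estimate.

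Rbfox2 (ENSMUSG00000033565, chromosome 15 from 77078990 to 77307004, minus strand) was the main Rbfox gene, with 26.8, 29.5 and 37.8 TPM in control and 32.1, 32.0, 28.8 and 31.0 TPM with shKmt2f. The shKmt2f libraries lay inside the range of the control libraries (limma, log2 fold change -0.01, SE 0.14, adjusted p = 0.985). Of its tested transcripts only Rbfox2-205, a non-coding form of 417 bases, separated the groups, at 8.86, 9.40 and 11.2 TPM against 7.68, 7.88, 7.91 and 8.24 TPM, and it did not pass (limma, log2 fold change -0.27, SE 0.14, adjusted p = 0.271). The 43-base form of Rbfox2 was the minor one, with the 40-base form at 88.9% ± 5.66 (SD, n = 3) and 84.0% ± 8.32 (SD, n = 4) of the pair. Rbfox3, which encodes the neuronal antigen NeuN, had 0.0772, 0.124 and 0.253 TPM against 0.374, 0.229, 0.592 and 0.181 TPM (chromosome 11 from 118489762 to 118911597, minus strand). These values overlapped (exact permutation p = 0.171), and all were under 1 TPM.

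Neither Musashi gene was called. Msi1 (ENSMUSG00000054256, chromosome 5 from 115429599 to 115455698, plus strand) had 16.3, 10.4 and 22.2 TPM in control and 16.2, 15.9, 14.9 and 18.4 TPM with shKmt2f (limma, log2 fold change 0.06, SE 0.23, adjusted p = 0.882). Msi2 (ENSMUSG00000069769, chromosome 11 from 88339382 to 88718513, minus strand) had 10.6, 11.1 and 15.8 TPM against 10.9, 12.8, 10.6 and 13.2 TPM (limma, -0.05, SE 0.17, adjusted p = 0.862). In both genes control replicate 3 was the highest library and the groups overlapped. The signs of the Msi1, Msi2, Ptbp1 and Rbfox2 fold changes turned under at least 1 alternative, that of Msi1 also with median-ratio scaling between libraries (-0.06), and no direction is given for them.

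Single transcripts of Msi1 differed in direction. A pair of coding transcripts stood higher in every shKmt2f library. Msi1-201 (1254 bases) had 0.510, 0.432 and 1.87 TPM against 2.32, 2.57, 2.48 and 3.14 TPM (limma, log2 fold change 0.98, SE 0.27, adjusted p = 0.0818), and Msi1-204 (726 bases) had 1.69, 0.768 and 1.60 TPM against 3.57, 3.95, 3.18 and 2.46 TPM (limma, 0.88, SE 0.22, adjusted p = 0.0716). Msi1-209, a form with a retained intron, was lower in each, with 1.38, 1.66 and 1.48 TPM against 0.922, 0.867, 0.899 and 1.12 TPM (limma, -0.36, SE 0.17, adjusted p = 0.237). Another coding transcript, Msi1-203 (807 bases), had a lower mean with shKmt2f, at 1.14, 0.869 and 2.87 TPM against 0, 0, 1.09 and 0 TPM. Its groups overlapped (limma, -1.05, SE 0.37, adjusted p = 0.144). The longest coding transcript, Msi1-208 of 3133 bases, had 3.51 ± 0.476 TPM (SD, n = 3) and 3.55 ± 0.348 TPM (SD, n = 4). A 57-base exon of Msi1 at chr5:115447130-115447186 was left out in 35.3% ± 7.60 and 33.4% ± 4.60 of the spanning TPM (exact permutation p = 0.771). The forms without it are Msi1-203 and Msi1-204. For Msi2, the main transcript Msi2-203 of 6436 bases had 3.91 ± 0.790 and 4.93 ± 0.513 TPM, with overlapping libraries.

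Set side by side, the progenitor regulators (Ptbp1, Msi1, Msi2) and the neuronal regulators (the other 7) were summarised by library. The mean log2(TPM + 1) of the progenitor genes was 5.18, 5.02 and 5.74 in control and 5.23, 5.41, 5.20 and 5.35 in shKmt2f libraries, which overlapped. That of the neuronal genes was 2.56, 2.93 and 2.68 in control and 3.04, 3.00, 3.13 and 3.11 in shKmt2f libraries, which did not. The difference of the means, neuronal minus progenitor, was -2.62, -2.08 and -3.06 against -2.19, -2.41, -2.07 and -2.24, and here the groups overlapped because of control replicate 2. These scores are over chosen genes and carry no test.

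The ratio of Ptbp2 to Ptbp1 was 0.349, 0.753 and 0.249 in control and 0.824, 0.707, 0.824 and 0.904 in shKmt2f libraries. Control replicate 2 exceeded shKmt2f replicate 2, so the groups overlapped. Between the full-length coding transcripts, Ptbp2-201 to Ptbp1-202, the ratio was 0.728, 1.19 and 0.477 in control and 1.42, 1.20, 1.58 and 1.51 in shKmt2f libraries, apart by the small gap between 1.19 and 1.20. Only full-length Ptbp2 in control replicates 1 and 3 was thus below full-length Ptbp1.

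**Figure D4:**
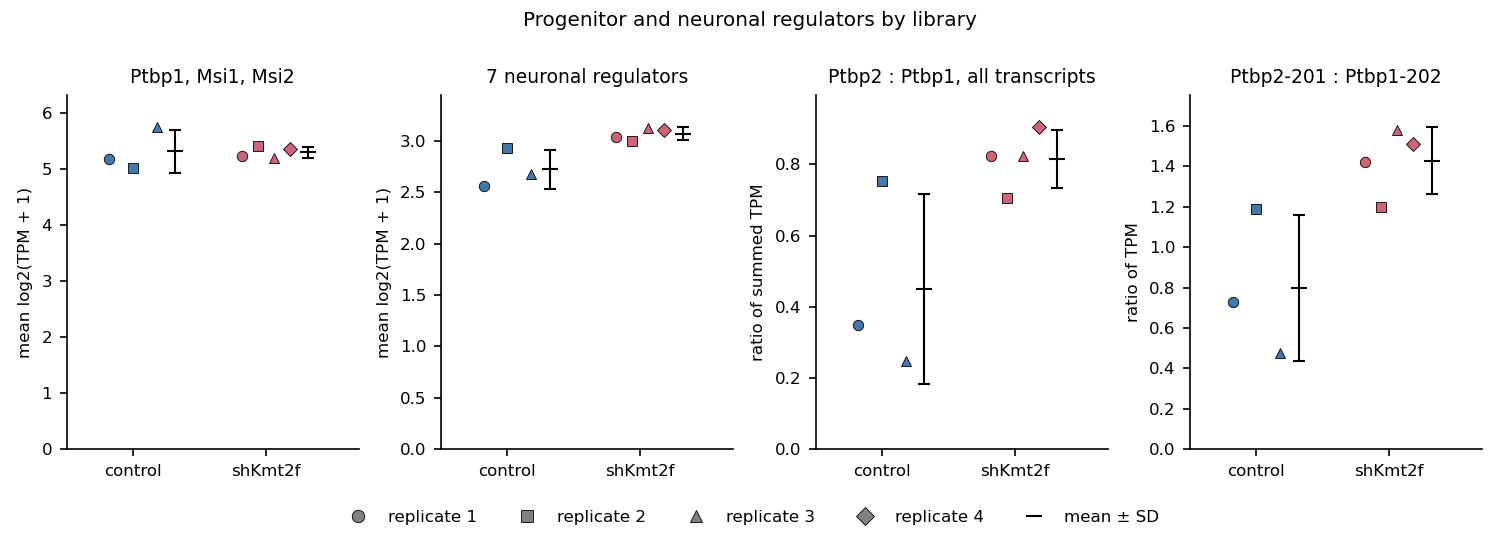
Mean log2(TPM + 1) of the 3 progenitor and the 7 neuronal regulators, and the ratios of Ptbp2 to Ptbp1 TPM over all transcripts and between the full-length coding transcripts (vertical axes, from 0), by group, with 1 point per library and the mean ± SD. Control replicate 2 (square) is the control library nearest to the shKmt2f libraries in the neuronal mean and in both ratios.

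Markers of some retinal cell types moved with the groups. In sorted bulk cells, a change in the number of cells of a type and one in RNA per cell cannot be told apart. The counts of called markers stand beside 10.4% higher and 3.69% lower over all genes tested. Progenitor markers (14 tested) summed to 1244 to 1577 TPM in control and 1076 to 1238 TPM with shKmt2f, with 0 higher and 2 lower in limma. Ganglion cell markers summed to 74.8 to 115 TPM against 114 to 142 TPM, with 6 of 7 tested higher, while their defining genes Pou4f1 and Pou4f2 were under 1 TPM in every library. Photoreceptor precursor markers summed to 650 to 691 TPM against 894 to 1117 TPM, with 4 of 12 higher and none lower. Of 12 neurogenic progenitor markers 3 were higher and 1 lower, and their sums overlapped (2059 to 2717 TPM in control, 2671 to 2990 TPM with shKmt2f). Of 10 amacrine and horizontal cell markers 2 were higher and 0 lower, with sums of 199 to 207 against 212 to 242 TPM. Of 6 bipolar and Müller glia markers 0 were higher and 1 lower, with overlapping sums of 759 to 968 against 800 to 948 TPM. The median log2 fold changes of these lists, in the order given, were -0.31, 0.95, 0.49, -0.26, 0.17 and 0.24, beside 0.09 over all genes. The neurogenic median was thus below 0, though more of those markers were called higher than lower. None of 8 microglial and blood markers was listed in the tables, 0 of 3 markers of vessels and astrocytes was called, and 1 of pigment epithelium and lens was called higher, the only one of its list tested. Their part in the Ptbp2 result was not tested.

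Among 34 other neural and developmental RNA-binding regulators tested, 5 rose and 0 fell, beside 10.4% higher and 3.69% lower over all genes tested. The median log2 fold change was 0.30 beside 0.09 over all genes. By adjusted p the first were Mbnl2, a muscleblind splicing factor (33.7 ± 7.77 against 56.6 ± 5.86 TPM, mean ± SD of 3 control and 4 shKmt2f libraries, as for the genes after it; limma, 0.75, adjusted p = 0.0299), and Fxr2, a relative of the fragile X protein (101 ± 10.5 against 139 ± 10.5 TPM; limma, 0.46, adjusted p = 0.0332). They were followed by Elavl4, a neuronal Hu protein (9.73 ± 3.20 against 18.4 ± 1.38 TPM; limma, 0.90, adjusted p = 0.0335), and Igf2bp2, which binds messenger RNAs of growing cells (28.5 ± 4.35 against 42.1 ± 3.63 TPM; limma, 0.55, adjusted p = 0.0346). The fifth, named after its values were seen, was Fxr1 (limma, 0.72, adjusted p = 0.0358). Each of the 5 lost its call when control replicate 1, control replicate 3 or any 1 shKmt2f library was left out (limma, adjusted p from 0.0521 to 0.11), and all 5 were called without control replicate 2. With the correction for GC content and length Fxr1 was not called (limma, adjusted p = 0.351). With protein-coding transcripts only Fxr2, Elavl4 and Igf2bp2 were not called (limma, adjusted p = 0.225, 0.0641 and 0.0728). Fxr2 was also not called with transcripts weighted by length (limma, adjusted p = 0.113), nor Elavl4 with median-ratio scaling (0.0607). The other neuronal Hu genes, named after their values were seen, went in both directions and did not pass. Elavl3 was lower in every shKmt2f library (limma, -0.57, adjusted p = 0.0624), and Elavl2 had a higher mean with overlapping groups (limma, 0.87, adjusted p = 0.0795).

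**Figure D5:**
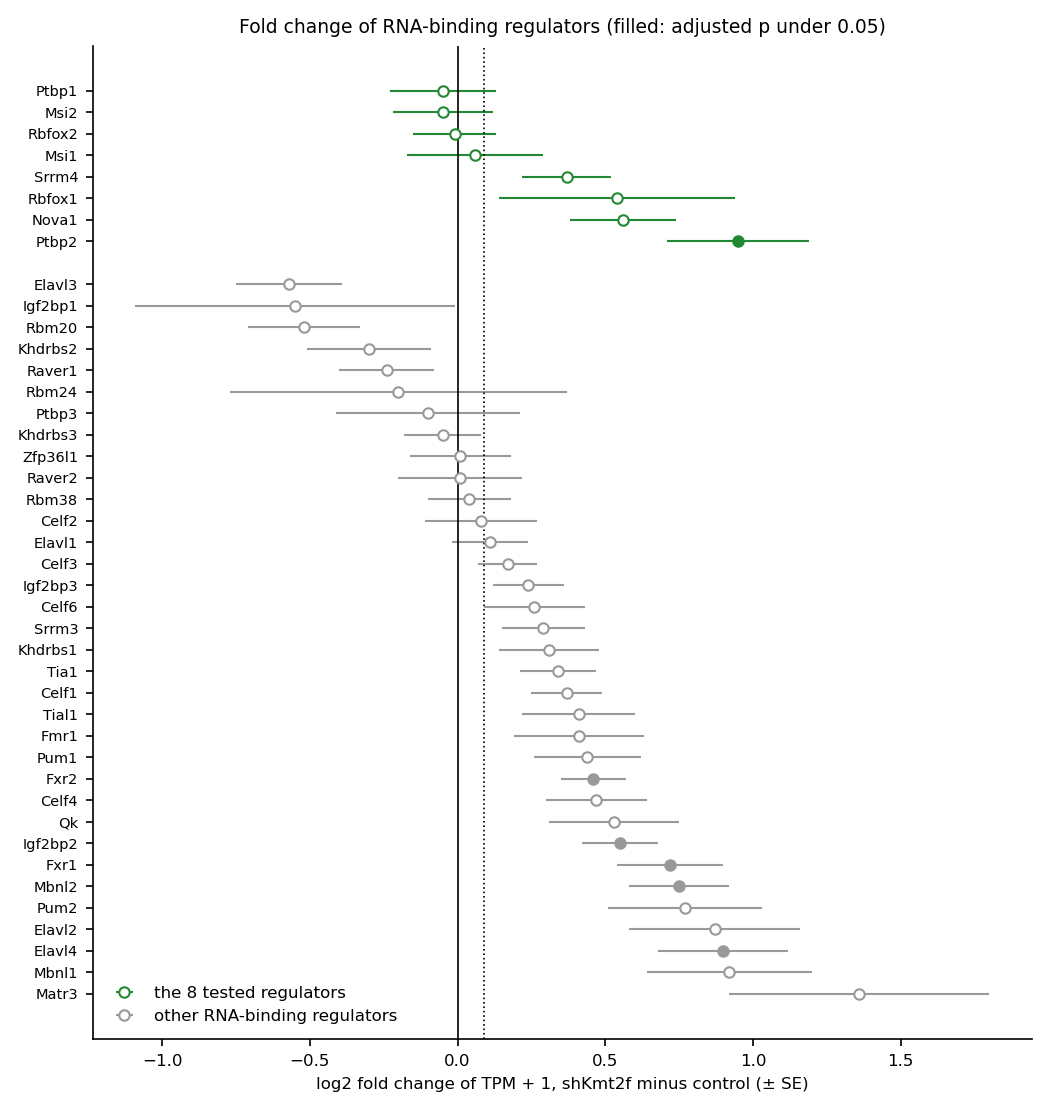
Log2 fold change ± SE (horizontal axis, shKmt2f minus control of log2(TPM + 1)) of the 8 tested regulators (green) and of 34 other RNA-binding regulators (grey), with filled points where the limma adjusted p is under 0.05. The solid line marks 0 and the dotted line the median of all genes, 0.09; Ptbp2 is the one filled green point.

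Genes whose exons these regulators are known to control were also read out, at the level of the whole gene only. Their counts stand beside 10.4% higher and 3.69% lower over all genes tested. With so few genes in each list, the counts do not set the lists apart from all genes. Of 11 tested genes with Ptbp-controlled exons, 1 rose, Cltb, a clathrin light chain (120 ± 8.02 against 163 ± 18.0 TPM; limma, 0.43, adjusted p = 0.0415), and 1 fell, Mapt, which encodes tau (19.0 ± 1.24 against 9.42 ± 2.22 TPM; limma, -0.96, adjusted p = 0.0187). Of 13 with Srrm-controlled microexons, 2 rose, Cpeb4 (limma, 1.11, adjusted p = 0.0153), a translational regulator, and Ap1s2 (limma, 1.11, adjusted p = 0.0439), an adaptor subunit of vesicle coats. Of 8 with Nova-controlled exons only Ank3, the ankyrin of the axon initial segment, rose (limma, 0.75, adjusted p = 0.0291).

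Of 9 with Rbfox-controlled exons, Snap25, a synaptic fusion protein (limma, 1.09, adjusted p = 0.0195), and Epb41 (limma, 0.97, adjusted p = 0.0296) rose, and Camta1 fell (limma, -0.48, adjusted p = 0.0337). Of 11 genes known as Musashi targets 3 rose and 0 fell: Cacna2d4, a photoreceptor calcium channel subunit (limma, 0.91, adjusted p = 0.0190), Ttc8, a ciliary trafficking gene (limma, 0.78, adjusted p = 0.0278), and Slc17a7, a vesicular glutamate transporter (limma, 0.90, adjusted p = 0.0438). The medians of these 5 lists, in the order given, were 0.22, 0.31, 0.11, 0.34 and 0.42, beside 0.09 over all genes. All 11 called target genes lost their call without control replicate 1 (limma, adjusted p from 0.0518 to 0.137), and all but Cacna2d4 (0.0375) without control replicate 3 (up to 0.124). Without 1 shKmt2f library Cpeb4 stayed called in each case and the other 10 lost their call at least once (limma, adjusted p up to 0.114), and without control replicate 2 only Cltb did (0.0615). Cpeb4 and Ap1s2 were not called with the correction for GC content and length (limma, adjusted p = 0.233 and 0.270), nor Cltb and Slc17a7 with median-ratio scaling (0.118 and 0.0636). Without the filter on low values Ap1s2, Cltb and Slc17a7 were not called (limma, adjusted p = 0.0628, 0.0543 and 0.0600). Slc17a7 was also not called with a pseudocount of 0.1 (limma, adjusted p = 0.0530), nor Ttc8 with protein-coding transcripts only (0.0545). With transcripts weighted by length Camta1 and Slc17a7 were not called (limma, adjusted p = 0.115 and 0.0625).

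Likeness to each regulator was taken as the Pearson correlation of log2(TPM + 1) over the 7 libraries, among genes with a mean of at least 5 TPM, as a description. Ptbp2 was most like Abce1 and Asnsd1 (r = 0.999 for both), Srrm4 most like Dpysl3 (0.997) and Car14 (0.990), and Ptbp1 most like Tsen54 and Sh3gl1 (0.987 for both). Msi1 was nearest to Snx12 (0.961), Msi2 to Rbm4b (0.973), Rbfox2 to Atg16l2 (0.982), Rbfox1 to Mrps22 (0.973), Nova1 to the gene listed as RP23-211P15.1 (0.997), Nova2 to Bub3 (0.986) and Rbfox3 to Stk24 (0.933). With 7 libraries and 9571 genes searched or more, high values are found for any gene.

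No listed gene outside the 10 shared 90% of its sequence with them over 200 bases or more. Exons of Ptbp1 overlap 251 bases of Plppr3-207 on the other strand, a transcript listed at 0.270 to 0.563 TPM, and the overlap includes Ptbp1-202 and Ptbp1-207 but not the 34-base exon. Also on the other strand, exons of Nova2 overlap Gm26821 (2652 bases) and those of Srrm4 overlap Srrm4os (68 bases). Exons of Ptbp1 overlap Gm17134 (437 bases) and E130317F20Rik (295 bases) in the same way. On the same strand, the unlisted Nova1-204 overlaps Gm33869 (310 bases). None of these other genes is listed, so their levels are unknown. No source used here says that reads were assigned by strand.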

How the data were processed

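Messenger RNA of EGFP-sorted cells was copied into cDNA with SMART-Seq v4 from 1 ng of RNA, per the labels' protocols. Salmon 0.11.3, sleuth 0.30.0 and the build GRCm38.p6 are named in the submitters' processing notes. For each library the authors deposited a table of TPM per transcript; 71 of 55475 rows hold no TPM. The deposited p-value and q-value columns and a deposited effect on the natural log scale are the same in all 7 tables, and were used only where named.

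TPM was summed per gene. limma 3.58.1 (R 4.3.3; mean-dependent prior, robust, group as the only term) was fitted to log2(TPM + 1) of all genes, and separately of all transcripts, where 3 or more libraries reached 1 TPM. Single values and ratios (pseudocount 0.1) used a two-sided exact permutation test over 35 splits. Transcript structures came from GENCODE M21.

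Named were all 10 genes, up to 4 called genes of each list, and for each regulator its most similar genes. Of their 47 transcripts with a mean of at least 0.5 TPM, only a selection is described. The regulators and lists were chosen with earlier results of these data known. The exon comparison was added after the transcripts had been seen. The alternatives are given in the closing section.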

Additional observations from a re-analysis of the deposited data

Results flagged for a closer look

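In groups of 4 libraries, 86 values were screened for a single library far from the other 3 (by Dixon's test at the 95% level, on its gap to the nearest other library), and 9 stood out. Chance gives about 1 in 20 groups, and several of the 9 share a measurement. Nova2 was lowest in shKmt2f replicate 1, at 0.440 TPM, and as the gene has a single listed transcript, Nova2-201 gave the same value of 0.440 TPM. In the same library Nova1-203 was lowest, at 0.782 TPM, and Msi2-206 was lowest, at 0.495 TPM.

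Shares of Srrm4 stood out in shKmt2f replicate 2. Its main transcript held 96.4% of the gene's TPM there, against 85.7 to 86.6% in the other 3, and the form without a 16-base exon held 100%, because Srrm4-205 was listed at 0. In the same library Ptbp1-209 was highest, at 36.5 TPM, and Msi2-205 was highest, at 3.25 TPM. Msi1-203 had 1.09 TPM in shKmt2f replicate 3 and was listed at 0 in the other 3 shKmt2f libraries.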

How the results depend on the processing

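Ptbp2 was higher in shKmt2f under every alternative run, with log2 fold changes from 0.59 (GC content and length correction) to 1.30. Its call was lost without the filter on low values (0.95, limma adjusted p = 0.0537; 0 of the regulators were then called), and on leaving out any 1 library other than control replicate 2, with values between 0.72 and 1.30 over the 7 libraries left out. The number of regulators called ranged from 0 to 2, and of their transcripts from 0 to 6, as each library was left out. Over all genes 1755 passed (1295 higher, 460 lower), and leaving out 1 library gave 283 to 3004, the highest without control replicate 2. Median-ratio scaling gave 1922 genes (1088 higher, 834 lower) and moved the median of all genes from 0.09 to -0.02; relative to that median Ptbp2 was at 0.86 and 0.85. The correction for GC content and length gave 652 higher and 683 lower. Over all transcripts 828 passed, 302 without the filter, 365 with a pseudocount of 0.1 and 63 to 4393 on leaving out 1 library.

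Leaving out each library in turn gave log2 fold changes from -0.18 to 0.17 for Ptbp1, -0.11 to 0.13 for Rbfox2, -0.21 to 0.30 for Msi1 and -0.15 to 0.11 for Msi2. Signs turned for fold changes near 0, none of which passed: Ptbp1 with the GC content and length correction (0.13) and without control replicate 3 (0.17), and Rbfox2 without control replicate 3 (0.13), without shKmt2f replicate 3 (0.03) and with protein-coding transcripts only (0.29). Msi1 turned with median-ratio scaling (-0.06), with transcripts weighted by length (-0.06) and without control replicate 2 (-0.21), and Msi2 without control replicate 3 (0.11), with protein-coding transcripts only (0.06) and with length weights (0.06). Nova1, whose fold change of 0.56 was not near 0, turned with the GC content and length correction (-0.22). The cause was not tested. The Ptbp1 78-base exon went to 0.03 without Ptbp1-207, which alone carried its difference. The Rbfox1 main transcript share differed by 42.6 percentage points, with an exact permutation p of 0.0286 on the share itself. On the log2 ratio the exact permutation p was 0.0571, or 0.171 adjusted over the 9 genes. This share was 45.2, 51.0 and 0% in control and 92.4, 85.8, 58.1 and 62.5% in shKmt2f libraries. The 0 stood in control replicate 3, where the whole gene had 0.417 TPM. The log2 ratio of the Rbfox2 73-base exon went from 2.17 to 0.22 without control replicate 2. Over the libraries left out in turn, the ratio took both signs for the Ptbp1 31-base exon (-2.20 to 0.19), the Srrm4 16-base exon (-0.92 to 0.37) and the Msi1 57-base exon (-0.33 to 0.12), and it ran from -2.77 to -0.33 for the Ptbp1 117-base exon. With 1 library left out the exact test cannot reach the threshold.

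Replicate numbers are shared by the groups, but the labels do not say what they mean. Deviations of same-numbered libraries correlated at 0.079, 0.065 and 0.06, none over 0.1, and not every library was closest to its own number, so the numbers were not taken as pairs. With the replicate number as a block 1377 genes and 1 transcript passed, and Ptbp2 was at 0.95 (limma adjusted p = 0.0219). No control library has the number of shKmt2f replicate 4, so that library adds nothing to the group difference in the blocked fit. The block also ended the calls of Fxr1, Fxr2, Igf2bp2, Camta1, Cltb and Slc17a7 among the listed genes (limma adjusted p from 0.0529 to 0.0787). TPM gives no depth, so low values such as those of Nova2 and Rbfox3 have an unknown counting error.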
